A study of Mus musculus with 33 samples.

Results

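The cells described here came from bone of mice given the injection that the labels name only IIA. After overnight labelling with the SAMENT substrate they were sorted by biotin into a positive and a negative fraction. In SAMENT the injected tumour cells carry a sortase that attaches biotin to cells they touch or lie beside, so the positive sort holds labelled neighbours. The bones of the study were femurs and tibias. The sources used here give no mouse strain, age, sex or tumour line, and do not say whether the 6 numbered injections were 6 animals, so the p-values below measure the spread between these samples only.

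Both sorts of the 6 injections were marked with hashtag antibodies (TotalSeqC), pooled and sequenced from the 5′ end as 1 matrix. A hashtag is an antibody that carries a short barcode, read out beside the genes of each cell. A barcode took the sample of its highest hashtag where that one reached 10 counts and 3 times the count of the next. Kept cells had 500 UMIs or more (unique molecular identifiers, which count RNA molecules), 200 genes or more and no more than 15% of UMIs from mitochondrial genes. This gave 22362 cells of 77728 kept in the whole series, 4889 of them biotin positive and 17473 biotin negative. The 6 positive samples are called P1 to P6 and the 6 negative ones N1 to N6, where the number is that of the injection. Per the deposited hashtag list, these barcodes, 5′ to 3′, separated the positive from the negative cells of injections 2 and 5, the injections whose positive samples had the largest shares of macrophage-like and of precursor-like cells:

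P2: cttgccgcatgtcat

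N2: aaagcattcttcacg

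P5: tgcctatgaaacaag

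N5: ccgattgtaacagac

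The list names the hashtags C0301 to C0312 where the matrix names them CMO301 to CMO312, and they were matched by number. Of 26666 barcodes, 3981 (14.9%) matched no single hashtag by this rule and 323 fell to the cell filter.

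Bone marrow makes neutrophils from precursors that first fill primary granules (Mpo, Elane, Prtn3) and divide, then fill secondary granules (Ltf, Camp, Ngp) as division stops. It also holds resident macrophages, which clear dying cells and recycle red cell iron, beside monocytes, lymphocytes, osteoclasts and the stromal cells that form bone and support blood formation. In bone metastasis, tumour cells meet all of these, and osteoclasts are known for resorbing the bone around them.

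Positive samples were smaller, and their median UMI count over all cells was higher. Kept cells numbered 249 to 2140 in P1 to P6 (815 ± 691, SD, n = 6) and 2322 to 3480 in N1 to N6 (2912 ± 447, n = 6; exact permutation test over samples, two-sided, p = 0.00216, the smallest that 6 against 6 allows, adjusted over 4 measures 0.00289). Total UMIs per sample ran from 2149784 to 27903856 in the positive and from 8031854 to 16961333 in the negative sort. The median UMI count per cell was 5689 ± 2673 against 3018 ± 553 (exact permutation p = 0.00649), and the median number of genes 2040 ± 719 against 1141 ± 124 (exact permutation p = 0.00216). With every cell thinned to 500 UMIs, an alternative chosen after seeing the data, the median was still 348 ± 7.88 genes against 284 ± 14.1, with no overlap (exact permutation p = 0.00216). The median mitochondrial share was 1.54% ± 0.542 against 0.707% ± 0.142. Within classes the direction varied: the median over samples was 1687 against 1813.5 UMIs in mature neutrophils, 18718 against 21931.5 in stromal cells, 4737.75 against 3789 in macrophages and 17007 against 10886.5 in precursors (positive against negative). P5 stood apart with 2140 cells and a median of 10766 UMIs, where the other positive samples had medians of 3641 to 6366.

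The sorts held different kinds of cells. The kept cells formed 27 clusters, of which 23 were named from marker lists, and a name stands for resemblance only: macrophage means macrophage-like throughout. Macrophages, granulocyte precursors and stromal cells took larger shares of every positive sample than of any negative one. Immature neutrophils, monocytes, T cells (a class that also held natural killer cells), B cells and plasmacytoid dendritic cells took smaller shares of every positive sample. The ranges of mature neutrophils overlapped.

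Macrophages made up 13.2%, 52.6%, 36.2%, 8.43%, 5.56% and 5.49% of P1 to P6, and 1.36% to 4.94% of the negative samples. The means were 20.3% ± 19.6 and 2.41% ± 1.33 (SD, n = 6 each; exact permutation p = 0.00216, adjusted over the classes tested 0.00433). P2 and P3 carried most of the difference, and without N1 to N6 in turn the adjusted p lay between 0.05002 and 0.0731, with a difference of 17.6 to 18.3 percentage points. The line between macrophages and monocytes moved with the clustering: at a finer clustering 91.6% of the positive macrophages kept the name, while of the negative ones 15.8% kept it and 74.5% moved to a monocyte cluster. Macrophages and monocytes joined made up 22.2% ± 18.7 and 11.4% ± 3.06 (exact permutation p = 0.307), a difference that did not exceed the spread between samples.

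Granulocyte precursors made up 20.8%, 3.30%, 3.56%, 16.5%, 46.9% and 25.3% of P1 to P6, and 0.390% to 2.09% of the negative samples (19.4% ± 16.2 against 1.13% ± 0.608, exact permutation p = 0.00216, adjusted 0.00433). These are the dividing cells that load primary granules. The samples richest in precursors (P1, P4, P5 and P6) had the lower macrophage shares, and the 2 richest in macrophages (P2 and P3) the lowest precursor shares. Stromal cells, the fibroblast and bone-forming lineages, were at 2.90% ± 2.31 in the positive and 0.428% ± 0.0643 in the negative sort (exact permutation p = 0.00216, adjusted 0.00433), and were highest in P2 and P3 at 5.77% and 5.86%.

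Osteoclasts, the cells that resorb bone, were found almost wholly in the positive sort, with 55 of 56 cells there. P1 held 16 of 423 cells (3.78%, 95% exact binomial interval 2.18 to 6.07), P3 held 37 of 955 (3.87%, 2.74 to 5.30), P2 and P5 held 1 each, and P4 and P6 held none. In P4, 0 of 249 cells allows a share of up to 1.20% (3 cells of the total; the exact interval ends at 1.47%), and in P6, 0 of 637 allows 0.471% (exact 0.577%); these intervals and limits cover counting error only. N3 held 1 cell and the other negative samples none. The class did not pass the exact permutation test over samples (p = 0.0606, adjusted 0.0970); in 4 of the 6 positive samples the share was near 0. Tested as cell numbers in edgeR's quasi-likelihood model it passed, with a log2 fold change of 6.74 and an adjusted p of 0.000286.

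Neutrophil clusters together took 34.3% ± 7.50 of positive and 63.0% ± 6.80 of negative cells (exact permutation p = 0.00216). Immature clusters were at 16.0% ± 8.04 against 43.8% ± 8.01 (p = 0.00216 by the exact permutation test, adjusted 0.00433). Mature neutrophils were at 18.3% ± 4.24 and 19.2% ± 8.13 (exact permutation p = 0.853), but their 3 clusters did not move alike. The one led by Cstdc4 and Retnlg was at 5.98% ± 3.83 of positive and 11.5% ± 3.12 of negative cells, the one led by Prr5l and Cass4 at 3.38% ± 1.75 and 6.61% ± 4.21, and the one led by Acod1 and Cxcl2 at 8.98% ± 7.18 and 1.07% ± 1.06, given without a test. Monocytes were at 1.91% ± 1.18 and 9.03% ± 2.73, T cells at 1.41% ± 0.976 and 5.57% ± 1.32, B cells at 1.20% ± 1.09 and 5.40% ± 2.67, and plasmacytoid dendritic cells at 0.426% ± 0.611 and 3.09% ± 0.850 (each with an exact permutation p of 0.00216, adjusted 0.00433, lower in 6 of 6 injections). With signs flipped within injections, which treats the injection number as a block, each class that passed had an adjusted p of 0.05, the smallest value this adjustment gave for 6 pairs. T cells were lowest in P3 at 0.419% and highest, among positive samples, in P4 at 3.21%, against 3.51% to 7.19% in N1 to N6. Basophils, erythroid cells, plasma cells, B cell precursors and stem or progenitor cells did not pass the adjustment. B cell precursors did pass, as lower, in edgeR on cell numbers (adjusted p = 0.0269). At a coarser clustering (resolution 0.5) they differed by -3.19 percentage points and also passed (exact permutation test, adjusted p = 0.0125).

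The other 4 clusters stayed unnamed. The one led by Cacnb2, Rad51b and Glis3 had 321 of its 349 cells in the positive sort, and made up 6.15%, 0.206%, 2.09%, 6.83%, 9.91% and 7.06% of P1 to P6 but 0.0651% to 0.333% of the negative samples. Its share was low in the same 2 samples, P2 and P3, that were low in precursors. Another, led by Tnfaip6, G0s2, Nr4a1 and Osm, was at 4.76% ± 2.21 and 1.74% ± 0.992, and the one led by Gria3, Apba1 and Nrg1 at 2.21% ± 1.66 and 0.588% ± 0.342. The largest, 625 cells led by Cecr2, Bach2, Vpreb3 and Ebf1, went the other way, with 28 cells in the positive sort and shares of 0.742% ± 0.614 and 3.54% ± 2.34. All unnamed clusters joined were at 13.1% ± 4.64 and 6.03% ± 2.02 (exact permutation p = 0.0108, adjusted 0.0192). At a coarser clustering (resolution 0.5) their share differed by 0.0321 percentage points and did not pass (exact permutation test, adjusted p = 0.961).

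**Figure D1:**
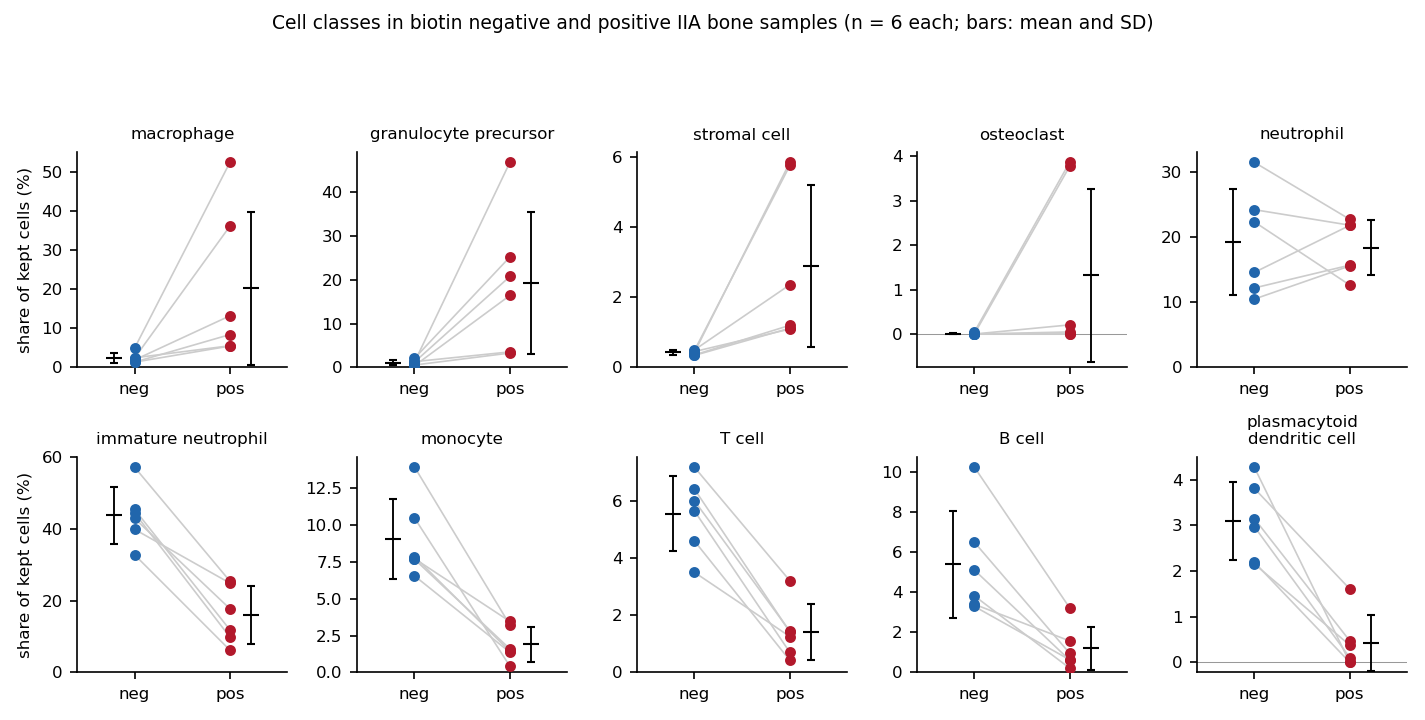
Share of kept cells (%) in 10 classes, for 6 biotin negative (blue) and 6 biotin positive (red) samples; grey lines join the 2 sorts of an injection, and the bars beside the points give the mean and SD. Points of the 2 sorts do not overlap for macrophages, granulocyte precursors and stromal cells (higher in positive) or for immature neutrophils, monocytes, T cells, B cells and plasmacytoid dendritic cells (lower), while mature neutrophils overlap and osteoclasts rest on P1 and P3.

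Counts were then summed over all kept cells of each sample; in these sums more cells of a type and more RNA per cell cannot be told apart. Of 12625 genes tested 50.2% passed the threshold (edgeR's quasi-likelihood test, Benjamini-Hochberg adjusted p under 0.05), 3412 higher (27.0%) and 2923 lower (23.2%) in the positive sort. The median log2 fold change was 0.08, and the values of the sorts did not overlap for 26.9% of genes. Gene levels below are counts scaled to a common library size (CPM) that was adjusted by TMM, edgeR's scaling factor, given as the lowest, median and highest of 6 samples, and fold changes are positive over negative on the log2 scale with the standard error.

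Macrophage genes rose. Of 10 scavenger and efferocytosis genes tested 8 rose and none fell, with a median log2 fold change of 3.82. Mrc1, the mannose receptor, was at 19.6, 34.7 and 552 CPM in the positive samples and 2.34, 2.89 and 8.62 CPM in the negative ones (5.27 ± 0.98, adjusted p = 0.000889). Mertk, which binds dying cells through the bridging protein Gas6, was at 3.26, 16.4 and 70.5 CPM in the positive samples and 0.264, 0.950 and 1.54 CPM in the negative ones (4.84 ± 0.76, adjusted p = 0.000274). Gas6 itself rose by 5.86 (adjusted p = 0.000644). For these 3 genes the lowest positive sample lay above the highest negative one.

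The complement subunits C1qa, C1qb and C1qc, which macrophages secrete to tag debris, were raised by 4.75, 4.42 and 4.68 (adjusted p of 0.000618, 0.000901 and 0.00114), with no overlap between sorts. C1qa was at 23.7, 93.1 and 502 CPM in the positive samples and 2.40, 3.74 and 17.5 CPM in the negative ones. P2 and P3, the samples richest in macrophages, were the highest. Over the whole list of C1q and its receptors 4 of 11 tested rose, 3 fell, and the median was -0.12, beside 27.0% and 23.2% of all genes. Of 14 lipid-associated macrophage genes 10 rose (median 1.86), among them Gpnmb (3.98 ± 1.08, adjusted p = 0.00873), a lysosomal glycoprotein, and Trem2 (2.38 ± 0.74, adjusted p = 0.0185), a lipid-sensing receptor. Of 11 iron recycling genes 5 rose, including Hmox1, which breaks down heme, at 29.3, 91.5 and 1528 CPM in the positive samples and 20.1, 23.9 and 47.3 CPM in the negative ones (4.02 ± 1.01, adjusted p = 0.00576). The sorts overlapped for Hmox1, and with the injection number as a block its log2 fold change was 2.34 with an adjusted p of 0.0527 and that of Trem2 1.42 with 0.104. Without P2 that of Trem2 was 1.57.

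Chemokines of the CCR2 axis, which draw monocytes, rose for Ccl8 (5.02, adjusted p = 0.00225, and 3.25 with the injection number as a block), Ccl12 (5.69, 0.00277) and Ccl7 (4.33, 0.00572). In that list 5 of 13 tested rose and 3 fell, where 27.0% of all genes were called higher and 23.2% lower. The T cell chemokine Cxcl16 rose by 3.83 (adjusted p = 0.00406), while its receptor Cxcr6 fell by 3.32 (8.57e-05), as did the chemokine receptor Cxcr3 by 3.08 (0.000112), both receptors without overlap.

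Pf4 and Ppbp are chemokines stored in platelets, and neither overlapped between sorts. Pf4 was at 292, 1343 and 3751 CPM in the positive samples and 14.5, 21.0 and 39.5 CPM in the negative ones (6.11 ± 0.69, adjusted p = 2.81e-05), and Ppbp at 1.41, 35.9 and 256 CPM in the positive samples and 0.0801, 0.208 and 1.06 CPM in the negative ones (7.48 ± 1.26, adjusted p = 0.000455). Summed marker levels, here and below, are CPM of the plain total without TMM, so they are not on the scale of the gene levels. The whole megakaryocyte and platelet marker list summed to 367 to 4228 CPM in the positive and 24.3 to 47.8 CPM in the negative samples, with no marker at 0. That sum is mostly Pf4 itself: without Pf4 and Ppbp the list summed to 8.21 to 345 CPM in the positive and 8.20 to 20.3 CPM in the negative samples, with overlap, and its part in these rises was not tested.

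Genes of bone and matrix also rose. Of 14 extracellular matrix genes tested 11 rose (median 2.72), and of 13 proteases and their inhibitors 8 rose and 2 fell. Mmp2, a gelatinase of stromal cells, was at 1.23, 10.2 and 102 CPM in the positive samples and 0.165, 0.326 and 0.709 CPM in the negative ones (6.31 ± 1.15, adjusted p = 0.00077) with no overlap. Col1a1, a chain of bone collagen, was at 2.06, 41.8 and 825 CPM in the positive samples and 1.49, 7.50 and 21.1 CPM in the negative ones (4.72 ± 1.36, adjusted p = 0.0119), with overlap. Ctsk, the collagen-degrading protease of osteoclasts, was at 0.321, 89.5 and 949 CPM in the positive samples and 1.16, 1.89 and 3.71 CPM in the negative ones (6.93 ± 1.55, adjusted p = 0.00287). P1, P2 and P3 were at 419, 172 and 949 CPM, while P4 and P6 lay within or below the negative range. Of the osteoclast lineage list 4 of 7 tested rose. Igf1, a growth factor of the niche, rose by 4.82 (adjusted p = 0.000533) and the adhesion molecule Vcam1 by 2.62 (8.84e-06), both without overlap. Cxcl12, the signal that holds blood cells in the marrow, was at 0.160, 3.18 and 40.6 CPM in the positive samples and 0, 0.179 and 2.71 CPM in the negative ones (3.85 ± 1.21, adjusted p = 0.0192), and without P2 its log2 fold change was 2.50 with an adjusted p of 0.0610.

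Granulocyte genes differed by granule. Of 8 primary granule genes 6 rose and none fell (median 1.94), whereas of 11 secondary and tertiary granule genes 10 fell and none rose (median -2.09). Mpo, the peroxidase of primary granules, was at 1080.2, 4242 and 6930.2 CPM in the positive samples and 469.9, 691 and 776 CPM in the negative ones (2.57 ± 0.42, adjusted p = 0.000345). Ltf, the iron-binding protein of secondary granules, was at 523, 1009 and 1648 CPM in the positive samples and 4581, 5796 and 7604 CPM in the negative ones (-2.52 ± 0.24, adjusted p = 9.55e-06). Neither overlapped between sorts. The alarmin gene S100a8 fell from 89752, 102885 and 118762 CPM in the negative to 16041, 23824 and 33458 CPM in the positive samples (-2.12 ± 0.17, adjusted p = 3.76e-06), and Cxcr2, the receptor that calls neutrophils out of marrow, fell by 1.86 (adjusted p = 4.59e-05). Of 16 cell cycle genes 5 rose and none fell, a share close to the 27.0% of all genes called higher.

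Lymphocyte genes fell. Of 13 genes of the T cell receptor complex 10 fell and none rose (median -3.08). Cd3e, a chain of that receptor, was at 0.235, 0.748 and 4.12 CPM in the positive samples and 6.41, 10.6 and 12.6 CPM in the negative ones (-3.46 ± 0.51, adjusted p = 0.000179), and Cd8a, the coreceptor of cytotoxic T cells, at 0, 0.303 and 2.06 CPM in the positive samples and 3.05, 4.73 and 9.26 CPM in the negative ones (-3.80 ± 0.59, adjusted p = 0.00025). The highest positive sample lay below the lowest negative one for both. Of 11 cytotoxic effector genes 5 fell and 2 rose, and of 9 T cell checkpoint and regulatory genes 5 fell and none rose. Siglech, which marks plasmacytoid dendritic cells, was at 0, 0.576 and 6.17 CPM in the positive samples and 21.3, 31.9 and 42.0 CPM in the negative ones (-4.56 ± 0.68, adjusted p = 0.00019). Basophil and type 2 genes fell in 7 of 10, with Cpa3, a mast cell and basophil protease, lower by 2.55 (adjusted p = 0.000376). Of 15 antigen presentation genes 2 fell and none rose, where 23.2% of all genes fell and 27.0% rose. Of the checkpoint ligands 3 of 11 fell and none rose, among them Vsir (VISTA) at -1.22 (adjusted p = 1.09e-05), a share close to the 23.2% of all genes called lower.

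Esr1, the estrogen receptor, was at 23.7, 58.6 and 76.5 CPM in the positive samples and 17.9, 21.9 and 26.3 CPM in the negative ones (1.21 ± 0.26, adjusted p = 0.00199). P2 lay within the negative range and the other 5 positive samples above it. The list of the receptor and its targets moved both ways, with 5 of 11 tested higher and 2 lower, beside 27.0% and 23.2% of all genes. Igfbp4, a secreted binder of insulin-like growth factors on that list, was at 259, 305 and 346 CPM in the positive samples and 82.9, 91.5 and 121 CPM in the negative ones (1.67 ± 0.11, adjusted p = 2.14e-06) without overlap. Long neuronal and synaptic genes rose in 6 of 9, among them Cacnb2, a calcium channel subunit (2.10 ± 0.32, adjusted p = 0.000223).

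**Figure D2:**
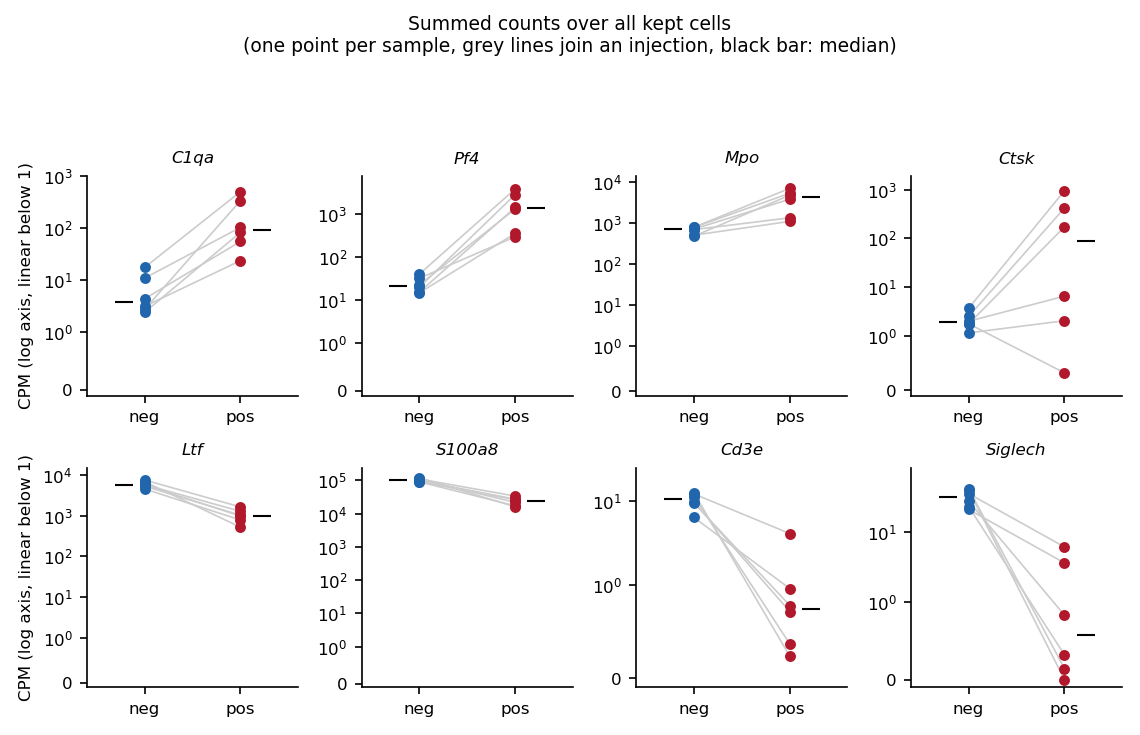
Scaled counts (CPM) summed over all kept cells for 8 genes, on a log axis that is linear below 1; each point is a sample, grey lines join the 2 sorts of an injection and black bars give the median. C1qa, Pf4 and Mpo are higher in every positive sample, Ctsk in some of them only, and Ltf, S100a8, Cd3e and Siglech are lower in every positive sample.

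Next, expression was compared within the macrophages alone, as sums of 21 cells (P4) to 346 cells (P3). Of 5157 genes tested 20.1% passed the threshold, 487 higher (9.44%) and 548 lower (10.6%) (edgeR's quasi-likelihood test), with a median log2 fold change of -0.01; the sorts did not overlap for 7.70% of genes, and 689 genes passed without P3. The class held 2 clusters, and their proportion differed between samples: the smaller one, led by Negr1, Cd5l and Vcam1, was 1.79%, 5.10%, 10.4%, 81.0%, 26.1% and 45.7% of the macrophages of P1 to P6 and 0%, 6.77%, 0%, 61.9%, 3.49% and 4.44% of those of N1 to N6. Without it, an alternative chosen after seeing the data, P4 had too few cells left and 1469 of 5808 genes passed. Marker levels of other cells also moved with the sorts: the monocyte markers summed to 3561 to 5843 CPM of the plain total in the negative and 1835 to 3446 CPM in the positive sums, the neutrophil markers to 7063 to 50778 against 1687 to 29860 CPM, and the platelet markers, Pf4 among them, to 7.69 to 334 against 251 to 7665 CPM. Without Pf4 and Ppbp the platelet markers summed to 0 to 3.50 CPM in the negative and 0 to 8.97 CPM in the positive sums. Of these 3 whole lists 0 of 14, 0 of 14 and 2 of 8 markers were at 0. Their part in the results below was not tested. At the finer clustering 65 of the negative macrophages kept the name and 307 moved to a monocyte cluster. Among the positive ones 762 kept the name and 30 moved to a monocyte cluster. Too few negative cells then stayed in the class for this comparison to run. How far the results below set macrophages against monocyte-like cells was not tested.

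Of 8 scavenger and efferocytosis genes tested within macrophages 6 rose and none fell (median 3.29). Igf1 had 393 UMIs over the positive sums and 0 over the negative ones, which is at least 45.1-fold higher against the 3 counts, over the group, that a count of 0 allows. Folr2, a folate receptor of resident macrophages, was at 63.1, 122 and 153 CPM in the positive samples and 0, 0 and 5.74 CPM in the negative ones (5.87 ± 0.54, adjusted p = 1.52e-05), and rested on 3 negative UMIs, all in N2; without N2 the fitted value was 9.01, which then depends on the prior count. Vcam1 was at 103, 446 and 1408 CPM in the positive samples and 0, 2.05 and 15.3 CPM in the negative ones (6.45 ± 0.81, adjusted p = 0.00011), Mertk at 99.97, 149.8 and 489 CPM in the positive samples and 0, 3.91 and 36.3 CPM in the negative ones (5.01 ± 0.69, adjusted p = 0.000214) and Mrc1 at 424, 782 and 1143 CPM in the positive samples and 0, 32.8 and 111 CPM in the negative ones (4.05 ± 0.51, adjusted p = 0.000114). None of these 5 genes overlapped between sorts.

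Iron and lysosome genes moved together in direction. Of 10 iron recycling genes 9 rose and none fell (median 2.26). Slc40a1, the iron exporter ferroportin, was at 110.3, 199 and 771 CPM in the positive samples and 3.91, 14.4 and 28.7 CPM in the negative ones (4.08 ± 0.56, adjusted p = 0.000201), and Hmox1 at 678, 1692 and 3209.7 CPM in the positive samples and 57.5, 177 and 363 CPM in the negative ones (3.24 ± 0.47, adjusted p = 0.00033). Of 16 lysosome genes 13 rose and none fell (median 1.10). Ctsb, a lysosomal protease, was at 2268, 2925 and 3565 CPM in the positive samples and 435, 575 and 789.6 CPM in the negative ones (2.28 ± 0.18, adjusted p = 4.24e-06), and Lgmn, the protease legumain, rose by 2.30 (adjusted p = 5.62e-05). These 4 genes were higher in every positive sum than in any negative one.

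Lipid-associated genes rose in 9 of 14 tested (median 2.15), none falling. Apoe, the lipid carrier, was at 2249, 3419 and 8510.0 CPM in the positive samples and 191, 359 and 1235 CPM in the negative ones (3.16 ± 0.44, adjusted p = 0.000249), and Trem2 at 160.0, 239 and 347 CPM in the positive samples and 14.5, 45.6 and 86.2 CPM in the negative ones (2.38 ± 0.29, adjusted p = 8.06e-05), both without overlap. In the CCR2 and macrophage chemokine list 7 of 11 rose and 3 fell. Ccl8 was at 126, 333 and 689 CPM in the positive samples and 0, 3.23 and 5.74 CPM in the negative ones (6.71 ± 0.60, adjusted p = 1.21e-05) and Ccl7 at 108, 279 and 829.9 CPM in the positive samples and 0, 2.55 and 100.5 CPM in the negative ones (4.48 ± 0.85, adjusted p = 0.00222). Pf4, also made by some macrophages, was at 254, 3013 and 7924 CPM in the positive samples and 8.21, 19.4 and 359 CPM in the negative ones (5.33 ± 0.96, adjusted p = 0.00147), beside the platelet marker levels given above.

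The C1q genes lay nearer the threshold here. C1qa was at 913, 1162 and 2377 CPM in the positive samples and 0, 83.8 and 719 CPM in the negative ones (3.07 ± 0.80, adjusted p = 0.0138), without overlap, and N4 was the highest negative sum at 719 CPM. C1qc (2.71 ± 0.87, adjusted p = 0.0379) and C1qb (2.47 ± 0.83, adjusted p = 0.0468) overlapped. Without any 1 library other than N4 the adjusted p of C1qb was 0.0564 to 0.1004, and without any other than P4 or N4 that of C1qc was 0.0508 to 0.0887; with at least 25 cells per sum that of C1qb was 0.0564, and in DESeq2 that of C1qc was 0.0541. Without N4 the log2 fold changes of C1qb and C1qc were 3.83 and 4.08.

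Genes lower in positive macrophages included monocyte and early response genes. Ms4a4c, expressed by classical monocytes, was at 0, 29.0 and 45.2 CPM in the positive samples and 117, 162 and 201 CPM in the negative ones (-2.64 ± 0.35, adjusted p = 0.00015), and Vcan, a proteoglycan of monocytes, at 0, 61.0 and 155 CPM in the positive samples and 174, 331 and 562 CPM in the negative ones (-2.27 ± 0.47, adjusted p = 0.00398), both without overlap. Of 15 immediate early and stress genes 6 fell and none rose (median -0.61), with Fos at 328, 402 and 545 CPM in the positive samples and 726, 1119 and 1189.9 CPM in the negative ones (-1.24 ± 0.18, adjusted p = 0.0003). Il1b, the inflammatory cytokine, was lower by 1.18 (adjusted p = 0.00984, and 0.0527 without the smaller macrophage cluster), while Tnf was higher (2.62 ± 0.51, adjusted p = 0.00259); in the NF-kB list 2 of 13 rose and 1 fell. By edgeR's quasi-likelihood test 0 of 12 cell cycle genes were called (0 at an unadjusted p under 0.05, DESeq2 0), and 0 of 14 nuclear oxidative phosphorylation genes (1 at an unadjusted p under 0.05, DESeq2 1). The antigen presentation list had 1 of 14 called, B2m (0.48 ± 0.15, adjusted p = 0.0333), whose adjusted p was 0.0513 to 0.0894 without P2, P3, P6, N1, N3, N5 or N6, and 0.135 without the filter on low counts.

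**Figure D3:**
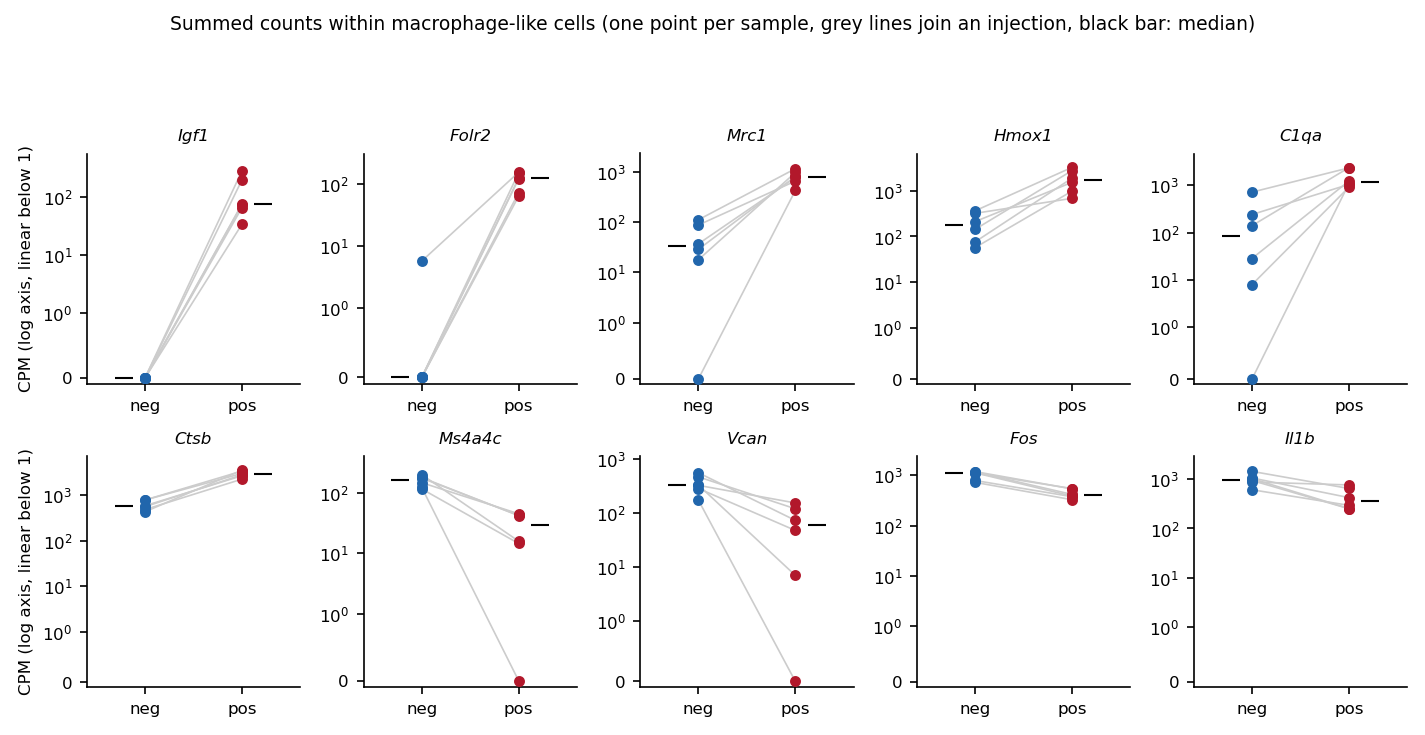
Scaled counts (CPM) within macrophages for 10 genes, on a log axis that is linear below 1; each point is the sum over 1 sample's macrophages, grey lines join the sorts of an injection and black bars give the median. Igf1, Folr2, Mrc1, Hmox1, C1qa and Ctsb are higher in every positive sum, Ms4a4c, Vcan and Fos lower in every positive sum, and Il1b lower with overlap.

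With macrophages and monocytes summed together, which does not depend on where the line between them was drawn, 28.3% of 9497 genes passed, 1561 higher (16.4%) and 1129 lower (11.9%) by edgeR's quasi-likelihood test. Scavenger and efferocytosis genes rose in 9 of 10 tested, iron recycling genes in 10 of 11, lipid-associated genes in 13 of 14, lysosome genes in 14 of 16, NF-kB and inflammatory genes in 11 of 15 and hypoxia and glycolysis genes in 12 of 15, with none falling in these 6 lists. C1qa was at 729, 1041 and 1665 CPM in the positive samples and 1.65, 12.8 and 64.2 CPM in the negative ones (5.46 ± 0.59, adjusted p = 8.36e-06). Gas6 had 368 UMIs in the positive sums and 0 in the negative ones, at least 223-fold higher by the same floor. Gdf15, a stress-induced secreted factor, was at 8.40, 54.7 and 141 CPM in the positive samples and 0, 0.202 and 0.927 CPM in the negative ones (7.48 ± 0.71, adjusted p = 2.65e-06). Monocytes made up more of the negative than of the positive sums, which moved with these values and whose part was not tested.

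Within neutrophils, mature and immature together, the sorts differed in fewer genes. Of 8934 genes tested 8.01% passed, 499 higher (5.59%) and 217 lower (2.43%) by edgeR's quasi-likelihood test, with a median of 0.01 and no overlap for 3.39% of genes. The count was 476, 283, 453 and 426 without P3, P5, N4 or N5. Inflammatory and early response genes were among the largest rises. NF-kB and inflammatory genes rose in 9 of 12 tested, and immediate early and stress genes in 6 of 15, with none falling. The chemokine Cxcl2, which recruits further neutrophils, was at 199.7, 974 and 9870.3 CPM in the positive samples and 38.8, 71.0 and 378 CPM in the negative ones (4.50 ± 0.96, adjusted p = 0.0125). Ccl4, a chemokine of inflamed myeloid cells, was at 2.71, 138 and 2721 CPM in the positive samples and 1.76, 6.46 and 44.6 CPM in the negative ones (5.50 ± 1.18, adjusted p = 0.0129), Acod1, which makes itaconate, at 46.1, 345 and 1489 CPM in the positive samples and 12.1, 26.7 and 84.6 CPM in the negative ones (3.98 ± 0.71, adjusted p = 0.00537), and Il1b at 75.9, 727 and 3454 CPM in the positive samples and 20.5, 99.95 and 278 CPM in the negative ones (3.41 ± 0.83, adjusted p = 0.0205). The ranges of these 4 genes overlapped. Nr4a1, an early response nuclear receptor, was at 51.5, 219 and 674 CPM in the positive samples and 13.2, 20.8 and 36.2 CPM in the negative ones (3.62 ± 0.53, adjusted p = 0.00187), and there the ranges were separate.

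These rises moved with the make-up of the class. The cluster led by Acod1, Cxcl2, Hcar2 and Il1b held 447 of 1470 positive neutrophils (30.4%) and 175 of 11007 negative ones (1.59%). Its share of all kept cells was 7.57%, 18.1%, 17.4%, 1.20%, 6.45% and 3.14% in P1 to P6 and 0.0651% to 2.93% in the negative samples. Without that cluster, an alternative chosen after seeing the data, 860 genes passed, and the log2 fold change was -0.63 for Cxcl2, -0.12 for Acod1, 0.10 for Il1b and 0.29 for Nr4a1; Ccl4 was too low to test.

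Granule and cell cycle genes changed as well, and the make-up of the class moved with them. The 2 clusters with Ltf among their leading genes held 11.98% to 21.5% of the neutrophils in the positive and 25.0% to 42.1% in the negative samples. The one led by Fcnb and Chil3 held 5.00% to 27.7% and 10.5% to 26.6%. Its leading genes also included the histone genes Hist1h2ao and Hist1h2ap and the cell division genes Cdc25a and Spc25. The part of this make-up in the values below was not tested. Of 8 primary granule genes 5 rose and none fell (median 0.64), and of 11 secondary granule genes 6 fell and none rose (median -0.43). Elane, the elastase of primary granules, was at 687, 1053 and 1553 CPM in the positive samples and 492, 551 and 615 CPM in the negative ones (0.90 ± 0.16, adjusted p = 0.00547). Ltf was at 4749, 5281 and 6537 CPM in the positive samples and 7551, 9639 and 11311 CPM in the negative ones (-0.82 ± 0.10, adjusted p = 0.00105), and S100a8 at 105645, 116635 and 132648 CPM in the positive samples and 148711, 161278 and 179516 CPM in the negative ones (-0.48 ± 0.06, adjusted p = 0.00105). The sorts did not overlap for any of the 3 genes. Cell cycle genes rose in 8 of 16, with Ccnb1, the mitotic cyclin, at 18.6, 49.9 and 73.1 CPM in the positive samples and 17.4, 19.8 and 24.1 CPM in the negative ones (1.22 ± 0.23, adjusted p = 0.00686); P2 and P3 lay within the negative range. Without the cluster led by Acod1, which leaves the other clusters in place, the log2 fold changes of Elane, Ltf, S100a8 and Ccnb1 were 0.88, -0.64, -0.40 and 1.43. At a finer clustering the rise of Elane was 0.20 with an adjusted p of 0.321. By edgeR's quasi-likelihood test 0 of 13 interferon-stimulated genes and 0 of 10 antigen presentation genes were called within neutrophils, with 0 of either list at an unadjusted p under 0.05 and 0 by DESeq2.

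The region before the Cxcl2 start site is shown because it holds 2 copies of a kappa B type sequence, in capitals, which NF-kB factors bind. It lies at chr5:90903649-90903898 on the plus strand (RefSeq, GRCm38.p6), 250 bases up to the start site:

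Cxcl2: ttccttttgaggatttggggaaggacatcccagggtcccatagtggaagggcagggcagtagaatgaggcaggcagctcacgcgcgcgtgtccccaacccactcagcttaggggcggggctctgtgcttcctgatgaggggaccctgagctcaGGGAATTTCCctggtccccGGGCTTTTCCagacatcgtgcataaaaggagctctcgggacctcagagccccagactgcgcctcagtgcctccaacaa

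The motif searched, on both strands, was GGG, any 2 bases and then TTTCC, present in 1.41% of 32851 promoters of the same length and in 1.65% of 27025 genes. Of the 10 largest rises in neutrophils 8 had a promoter in the table, and 2 of these (Cxcl2 and Dusp5) held the motif; a match is a description of the letters, not a site in use.

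**Figure D4:**
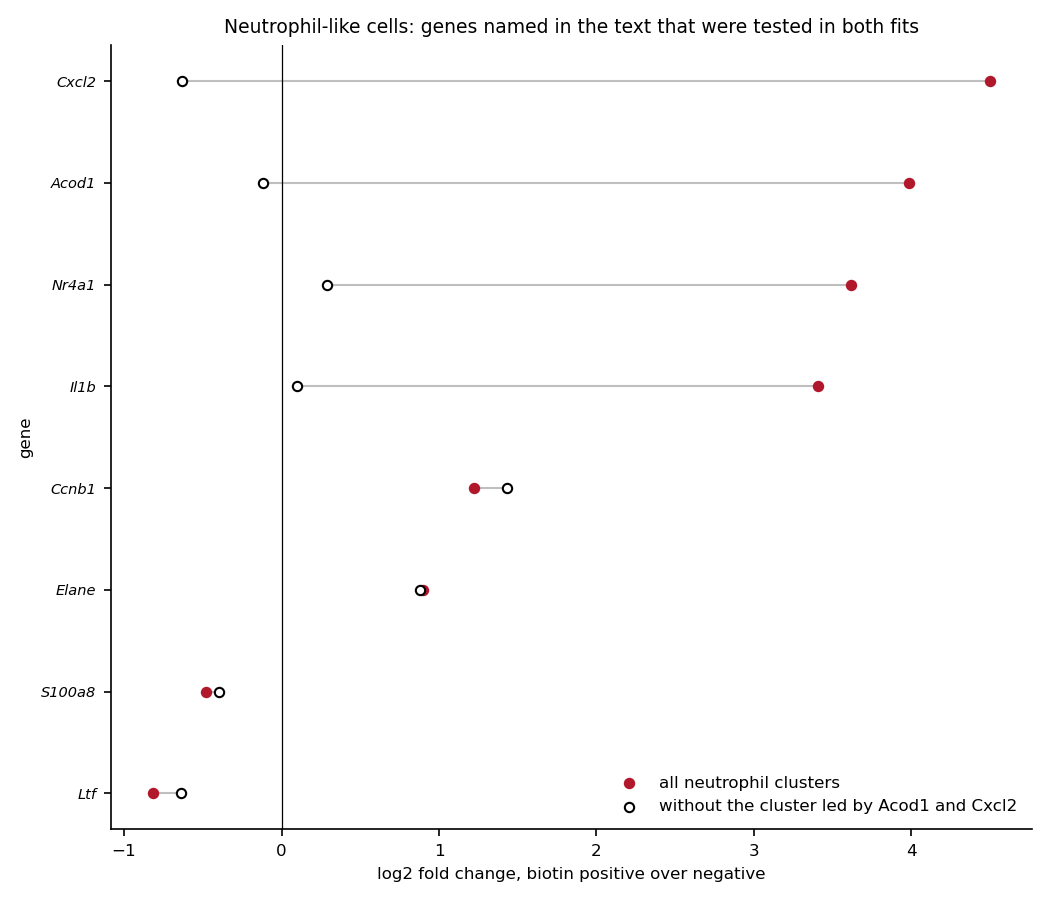
Log2 fold change, positive over negative, within neutrophils for named genes tested both in the full class (red) and without the cluster led by Acod1 and Cxcl2 (open). Cxcl2, Acod1, Il1b and Nr4a1 go from 4.50, 3.98, 3.41 and 3.62 to -0.63, -0.12, 0.10 and 0.29, while Elane, Ccnb1, Ltf and S100a8 keep their direction.

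Within granulocyte precursors, 6.01% of 6691 genes passed, 173 higher (2.59%) and 229 lower (3.42%) by edgeR's quasi-likelihood test over sums of 12 to 1004 cells. The median was -0.01, and the sorts did not overlap for 2.94% of genes. At the finer clustering more genes passed, with the count given in the closing section. The class held 2 clusters, and the smaller was 6.25% to 18.2% of it in the positive and 6.45% to 28.1% in the negative samples. Cell cycle genes moved both ways: of 16, 9 rose and 5 fell. Ube2c, which helps degrade cyclins at the end of mitosis, was at 404, 493 and 574 CPM in the positive samples and 71.2, 117 and 229 CPM in the negative ones (1.78 ± 0.18, adjusted p = 6.8e-07). Ccnb1 was at 88.6, 102 and 155 CPM in the positive samples and 12.9, 32.5 and 49.0 CPM in the negative ones (1.65 ± 0.21, adjusted p = 1.97e-05), Plk1, a mitotic kinase, at 77.9, 102 and 126 CPM in the positive samples and 11.3, 36.8 and 50.7 CPM in the negative ones (1.59 ± 0.22, adjusted p = 3.59e-05), and the spindle gene Hmmr at 83.2, 102 and 136 CPM in the positive samples and 0, 31.6 and 64.0 CPM in the negative ones (1.58 ± 0.22, adjusted p = 4.29e-05). Every positive sum exceeded every negative one for these 4 genes.

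The 5 members of the cell cycle list that fell act in DNA replication. The helicase subunits Mcm3, Mcm5 and Mcm6, the sliding clamp Pcna and the thymidylate synthase Tyms changed by -0.53, -0.71, -0.85, -0.66 and -0.70; they were named after their values were seen. Rrm2 and Tk1, which supply nucleotides, did not pass the threshold. The median UMI count per precursor was 13972 to 19640 in the positive and 9272 to 13761 in the negative samples, without overlap.

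Maturation genes were lower. All 9 secondary and tertiary granule genes tested fell (median -1.25), as did 6 of 7 S100 genes (median -1.07). Ngp, a secondary granule protein, was at 124, 626 and 1211 CPM in the positive samples and 1344, 1600.0 and 2945 CPM in the negative ones (-1.62 ± 0.29, adjusted p = 0.000504) without overlap. Retnlg, a late neutrophil gene, was at 3.24, 10.2 and 103 CPM in the positive samples and 0, 523 and 1098 CPM in the negative ones (-3.75 ± 0.47, adjusted p = 1.62e-05), with overlap. The summed neutrophil markers moved with them, at 13361 to 34315 CPM in the positive and 32541 to 52174 CPM in the negative sums; their part was not tested. Primary granule genes differed little, with 2 of 8 higher: Mpo, at 7501, 8524 and 8809.9 CPM in the positive samples and 6213, 6851 and 7188 CPM in the negative ones (0.31 ± 0.08, adjusted p = 0.0138), and Prtn3 (0.29 ± 0.08, adjusted p = 0.0265). With sums of at least 25 cells their adjusted p was 0.101 and 0.0956, and that of Prtn3 was 0.0522 to 0.0886 without P4, P6 or N2. Without the smaller precursor cluster, an alternative chosen after seeing the data, they were 0.0622 and 0.125, and without the filter on low counts that of Prtn3 was 0.0535. Of 11 immediate early and stress genes 5 fell and none rose (median -0.80), with Dusp1, a phosphatase induced by stress, at 4.03, 7.82 and 11.5 CPM in the positive samples and 19.4, 26.0 and 44.0 CPM in the negative ones (-1.84 ± 0.29, adjusted p = 0.000125) and Jund at 47.0, 55.0 and 66.4 CPM in the positive samples and 90.6, 106 and 172 CPM in the negative ones (-1.07 ± 0.15, adjusted p = 3.89e-05), both without overlap. Dusp1 passed the filter on low counts in only 6 of the 12 fits that left out 1 sample, and was called in these 6. Of the NF-kB list 2 genes could be tested, of which 0 passed edgeR's quasi-likelihood test or DESeq2's, with 1 at an unadjusted p under 0.05 by edgeR.

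**Figure D5:**
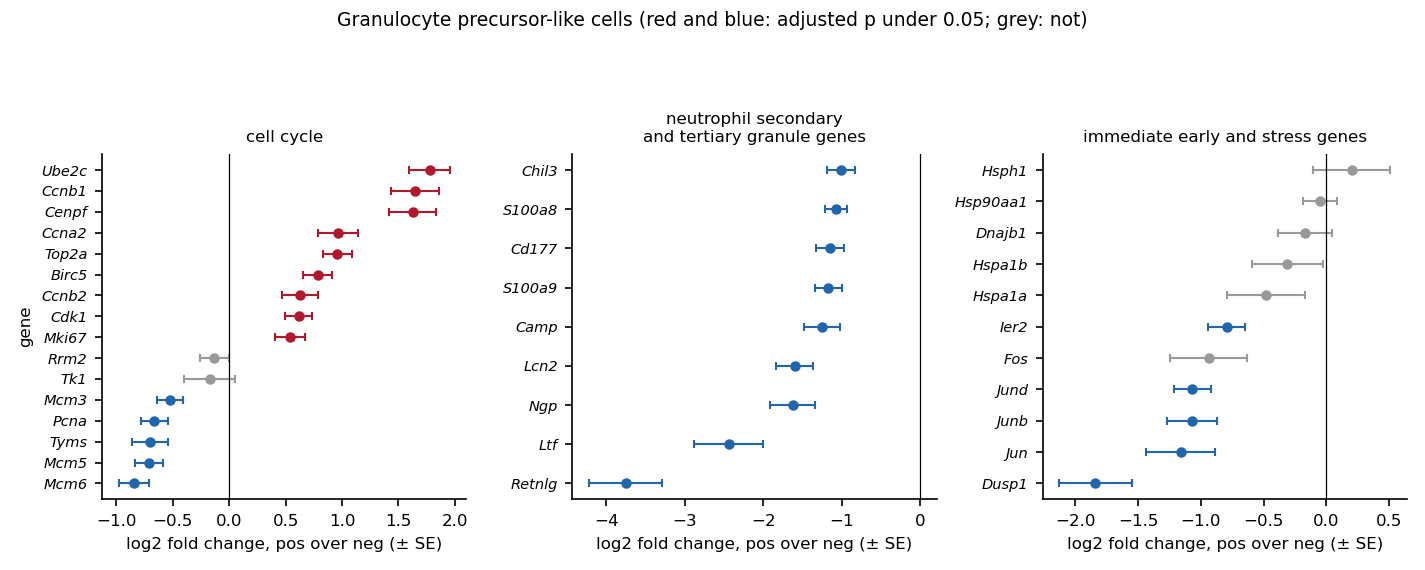
Log2 fold change, positive over negative, with its standard error for each tested member of 3 gene lists within granulocyte precursors; red and blue mark genes past the threshold, grey those that were not. In the first panel 9 of 16 cell cycle genes rose and 5 fell, all 9 secondary and tertiary granule genes lie below 0 in the second, and 5 of 11 early response genes fell in the third.

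The promoters of Ube2c, Ccnb1 and Hmmr, 3 of the 10 largest rises in precursors, are shown for the CCAAT boxes they share (capitals, CCAAT or its reverse complement), a sequence bound by NF-Y and common in mitotic genes. They are 250 bases up to the start site, 5′ to 3′ on the gene's strand (RefSeq, GRCm38.p6), at chr2:164769679-164769928 on the plus strand, chr13:100786487-100786736 on the minus strand and chr11:40733438-40733687 on the minus strand. In Ube2c the capitals TTCAAA mark the reverse complement of TTTGAA, a cell cycle element:

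Ube2c: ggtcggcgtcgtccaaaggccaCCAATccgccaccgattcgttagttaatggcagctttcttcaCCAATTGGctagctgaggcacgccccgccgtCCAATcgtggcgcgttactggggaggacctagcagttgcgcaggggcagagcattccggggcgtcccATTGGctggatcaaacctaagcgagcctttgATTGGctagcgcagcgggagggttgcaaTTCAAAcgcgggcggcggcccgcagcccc

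Ccnb1: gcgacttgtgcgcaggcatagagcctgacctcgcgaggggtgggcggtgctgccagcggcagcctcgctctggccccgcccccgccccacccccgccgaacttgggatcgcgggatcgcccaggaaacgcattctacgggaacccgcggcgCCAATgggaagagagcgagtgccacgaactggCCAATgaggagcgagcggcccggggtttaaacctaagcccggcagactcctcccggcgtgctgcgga

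Hmmr: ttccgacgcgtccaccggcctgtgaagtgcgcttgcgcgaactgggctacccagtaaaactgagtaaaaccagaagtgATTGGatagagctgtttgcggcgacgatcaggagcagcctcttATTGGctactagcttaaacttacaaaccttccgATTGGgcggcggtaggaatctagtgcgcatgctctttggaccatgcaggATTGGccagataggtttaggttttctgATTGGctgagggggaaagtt

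Ube2c holds 6 copies of CCAAT, 2 of them overlapping on opposite strands, Ccnb1 holds 2 and Hmmr 5. Of the 10 largest rises 9 matched a promoter, of which 8 held CCAAT and 4 held TTTGAA on either strand; of the 10 largest falls 9 matched, with CCAAT in 5 and TTTGAA in 2. CCAAT occurs in 33.8% and TTTGAA in 16.0% of the 32851 promoters, and, counted per gene as for the named genes, in 37.5% and 18.3% of 27025 genes.

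Stromal cells could be compared over 4 positive sums (P1, P2, P3 and P5) and 6 negative ones of 10 to 56 cells, and 3.03% of 4987 genes passed, 86 higher (1.72%) and 65 lower (1.30%) by edgeR's quasi-likelihood test. The count was 268 without P1 and 99 without P2, with the injection number as a block 135 were higher and 50 lower, and the sorts did not overlap for 3.75% of genes. The neutrophil markers summed to 10827 to 45290 CPM in the negative stromal sums and to 428 to 5358 CPM in the positive ones, and the stromal markers to 1406 to 6999 and 6545 to 19692 CPM. Their part in the differences was not tested. Of 15 extracellular matrix genes 4 rose, and all 15 had a log2 fold change above 0 (median 1.33). Mmp2 was at 232, 738, 298 and 352 CPM in P1, P2, P3 and P5 and at 0, 0 and 18.8 CPM (lowest, median and highest) in the negative sums (6.57 ± 0.61, adjusted p = 5.72e-05), and Prg4, the lubricin of joint surfaces, at 259, 5458, 1099 and 880.5 CPM in P1, P2, P3 and P5 and at 0, 4.41 and 94.0 CPM (lowest, median and highest) in the negative sums (6.41 ± 0.94, adjusted p = 0.00204), both without overlap. N2 alone among the negative sums had Mmp2 UMIs, and without N2 the fitted value was 10.32, which then depends on the prior count. Prg4 had an adjusted p of 0.0540 without the cells of highest doublet score. Of 11 secondary granule genes 10 fell (median -3.70), the neutrophil proteins that moved with the marker level above. Cxcl12 was at 51.1, 296, 70.4 and 105 CPM in P1, P2, P3 and P5 and at 0, 6.28 and 181 CPM (lowest, median and highest) in the negative sums (1.99 ± 0.86, adjusted p = 0.303) and did not pass; with the injection number as a block it did (4.31, adjusted p = 0.000102), and without N6 (4.53, 0.00549) or the filter on low counts (2.02, 0.00228), while without P2 the log2 fold change was 1.21.

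Monocytes and B cells gave no called gene at the clustering used. Only 3 positive monocyte sums had the 10 cells required, and 0 of 8941 genes passed edgeR's adjustment (0.00%), while 63 passed in DESeq2 and 789 were under 0.05 before adjustment; the sorts did not overlap for 9.70% of genes. With the injection number as a block 13 passed, without N6 49 did, and without the filter on low counts 136 of 17290. At the finer clustering, where 5 positive sums had enough cells and cells named macrophages here had moved into the class, 3569 of 9352 passed. In B cells with their precursors 0 of 4364 passed (0.00%), with 0 in DESeq2, 252 under 0.05 before adjustment and no overlap for 9.10% of genes. T cells and basophils had too few positive cells for a comparison within the class, with 4 to 15 T cells in each positive sample. In macrophages Cd3e had 4 positive and 3 negative UMIs, Cd8a and Cxcl12 had none, and Esr1 had 146 and 22 UMIs, too low to test. Within precursors Esr1 was at 48.6, 70.0 and 78.5 CPM in the positive samples and 19.4, 52.5 and 75.5 CPM in the negative ones (0.43 ± 0.17, adjusted p = 0.158) and did not pass, though it did at the finer clustering (0.62, adjusted p = 0.0179).

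The same sort was made in bone after intracardiac injection, with 15997 kept cells in 4 positive and 4 negative samples, multiplexed with CellPlex and read from the 3′ end. At most 3 cell barcodes of any 1 of those samples occurred in the IIA matrix. In a joint fit of all 20 sums, 0 of 14607 genes passed for a difference between the 2 injections in the positive over negative change (edgeR's quasi-likelihood test; 1541 at an unadjusted p under 0.05, DESeq2 149), 2 passed with the injection number as a block, and 231, 2 and 4 passed without intracardiac positive replicate 3, positive replicate 2 or negative replicate 4. In that fit 10 genes (0.0685%) were called for intracardiac bone alone. C1qa was at 4.73 in IIA and 4.15 in intracardiac bone (difference 0.58 ± 1.53, adjusted p = 0.967), and Mpo at 2.54 and 1.64 (0.91 ± 0.79, 0.786). Ltf, at -2.55 and -0.46, differed by -2.08 ± 0.55 with an adjusted p of 0.162, and Cd3e, at -3.50 and -1.28, by -2.22 ± 0.95 with 0.397. In intracardiac bone alone none of these 4 genes was called (adjusted p of 0.162 for C1qa, 0.216 for Mpo, 0.590 for Ltf and 0.345 for Cd3e). Vcam1, by contrast, was called there, at 4.74 against 2.60 in IIA bone (intracardiac adjusted p = 0.0425; difference -2.14 ± 0.98, adjusted p = 0.443). None of the 5 differences passed, with standard errors of 0.55 to 1.53 on the log2 scale.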

How the data were processed

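The deposited matrices give raw UMI counts of each gene in each barcode. Per the file headers, the authors' matrix of the IIA bone pool was written by cellranger 7.1.0 and those of intracardiac bone by 6.1.2; the submitters' processing notes also name Seurat and mm10. Intron counting is not given in the sources used here. Hashtag rows of the pooled matrix assigned each barcode to a sample as described above, and barcodes that matched no single hashtag were left out; no other doublets were removed. Cells were clustered with scanpy 1.11.5 (Leiden, resolution 1.0) and clusters named from marker lists.

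Counts were summed per sample, or per sample and class where a sum held at least 10 cells, with at least 3 sums per sort. They were tested with edgeR 4.0.16 (quasi-likelihood, TMM, filterByExpr) without a block, at an adjusted p under 0.05 over all genes tested. Shares were compared by exact permutation tests over 924 assignments, adjusted over 16 classes. The clustering at resolution 2.0 is the finer one named above. On simulated sums of all cells the fit recovered 59.4% of genes changed by 1 log2 unit and 95.8% of those changed by 2. The values were 71.9% and 98.8% for macrophages, and 95.5% and 100% for precursors. Of the genes it called in these 3 simulations, 3.27%, 6.96% and 5.82% had not been changed. For all cells the simulation changed 96 and 95 of 12487 genes by 1 and 2, in both directions, where 50.2% of genes were called in the data. How the fit performs when so many genes differ was not tested.

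Genes were named by rule: per comparison, the 10 largest changes in each direction among called genes with a mean of at least 20 CPM in the higher sort and the same direction in every injection, up to 4 called members of each of 33 gene lists (or, where none passed, 2 by level), and a fixed set with Esr1, C1qa, C1qb, C1qc, Cd3e, Cd8a and Cxcl12; a part of these is printed, and some genes are not reported here. The members and lists were chosen with earlier results of these data known. The injection numbers were taken to pair the sorts. Over all cells the deviations of same-numbered samples from their group means correlated at 0.137 to 0.671 (6427 genes). P2, P4 and P6 correlated best with the negative sample of their own number, but P1, P3 and P5 correlated better with N3, N2 and N6. Within precursors the same-number correlations were 0.0234 to 0.181. Alternatives were RLE size factors, DESeq2 1.42.0, no filter on low counts, the replicate block, stricter hashtag and cell filters, leaving out the 5% of cells with the highest Scrublet score, other clusterings, at least 25 cells per sum and leaving out each sample.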

Additional observations from a re-analysis of the deposited data

Results flagged for a closer look

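Of 208 groups of 4 to 6 samples, 24 (11.5%) had 1 sample far from the others; chance gives about 1 in 20 for independent, normally distributed groups, which these shares and levels from the same samples are not. P4, the smallest sample, was that sample in 9 of them. Its shares of T cells (3.21%, next P2 at 1.44%), B cell precursors (0.803%, next 0.206%), erythroid cells (2.81%, next 0.825%) and plasmacytoid dendritic cells (1.61%, next P6 at 0.471%) were high for a positive sample. So were its levels over all cells of Cd3e (4.12 CPM, next 0.962), Cd8a (2.06 CPM, next 0.471) and Cxcr3 (2.06 CPM, next 0.572). Within its 21 macrophages Ms4a4c was at 0 CPM, where the next lowest positive sum was at 14.5, and Lgmn was at 857 CPM, where P6 was at 1450.2.

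P5 was high in kept cells (2140, next 955) and in the median number of genes per cell (3420, next 2153), and low in Cxcr2 over all cells (23.5 CPM, next 44.2). In precursors P2 had the highest Ccnb1 (155 CPM, next P3 at 105).

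Among negative samples, N2 had the largest share of macrophages (4.94%, next 2.47%) and was high in Hmox1 over all cells (47.3 CPM, next 26.8), in Pf4 (359 CPM, next 20.4) and Folr2 (5.74 CPM, the others at 0) within macrophages, and in Mmp2 within stromal cells (18.8 CPM, the others at 0). N3 held the only negative osteoclast (0.0431%) and the highest Gas6 over all cells (0.550 CPM, next 0.236). N1 had the largest share of unnamed clusters (10.0%, next 5.81%), and N6 the highest Cxcl12 over all cells (2.71 CPM, next 0.591). N4, with 12 precursors, had Hmmr and Retnlg at 0 CPM, where the next lowest negative sums were at 19.8 and 282.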

How the results depend on the processing

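With the injection number as a replicate block, the differences in share of the 9 classes that passed (17.84 percentage points for macrophages, 18.25 for precursors, 2.48 for stromal cells, 7.05 for unnamed clusters, -27.85 for immature neutrophils, -7.12 for monocytes, -4.16 for T cells, -4.20 for B cells and -2.66 for plasmacytoid dendritic cells) had an adjusted p of 0.05 by sign flips. In edgeR on cell numbers osteoclasts passed (log2 fold change 6.74, with the block 6.35), as did B cell precursors (-2.45, with the block -2.07), which also passed at resolution 0.5 (-3.19 points). At that resolution the unnamed clusters differed by 0.0321 points and did not pass (exact permutation test, adjusted p = 0.961). Leaving out 1 sample at a time gave 11.4 to 20.8 points for macrophages, 0.7999 to 1.57 for osteoclasts, -0.519 to -0.296 for B cell precursors and -0.511 to -0.261 for basophils; osteoclasts passed without P4 or P6, and both other classes without P4.

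Counts of called genes ranged, leaving out 1 sample at a time, from 689 to 1311 in macrophages, 283 to 975 in neutrophils, 99 to 268 in stromal cells, 0 to 49 in monocytes and 0 to 231 for the comparison with intracardiac bone. At resolution 2.0 they were 407 in neutrophils, 942 in precursors and 3569 in monocytes. Without the low-count filter 744 stromal, 136 monocyte and 33 B cell genes passed. Without the highest doublet scores 63 stromal and 5 monocyte genes passed, and in monocytes 1 passed with RLE and 63 with DESeq2. The block gave 13 in monocytes and 2 for the comparison with intracardiac bone, where DESeq2 gave 149. The block changed no other total by over 1.5 times, but moved the stromal genes called higher from 86 to 135. Within neutrophils the log2 fold changes of Cxcl2 and Acod1 turned to -0.63 and -0.12 without the cluster they lead. The causes of these shifts were not tested. The macrophage comparison at resolution 2.0 could not be run. T cells and basophils had too few positive cells to be compared within the class at this depth.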
